A study of Mus musculus with 6 samples.

Results

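The immediate-early response genes described here are 10 mouse genes whose transcription is switched on within minutes by growth factors, cytokines, mechanical load or stress, without new protein synthesis. They were chosen as a named list, Fos, Fosb, Jun, Junb, Egr1, Atf3, Ier2, Nr4a1, Dusp1 and Zfp36, and all 10 were found among the 54532 genes of the deposited table. RNA was taken from bone of mice lacking both copies of the miR-29cb2 microRNA cluster (MIR29cb2-/-, called miR-29cb2 KO below; 3 libraries) and of wild-type mice (WT; 3 libraries). All were labelled as female, on the C57BL/6J background, and 16 weeks old. Which bone was taken, and whether its marrow was kept, is not in the labels. Nor do they tie libraries to separate animals, so the spread behind each p-value is that of libraries and may be technical.

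In these genes an external signal reaches kinases of the MAPK family, which activate factors already present, such as SRF with its ETS partners and CREB. The first wave of products is made up largely of transcription factors: Fos and Jun proteins pair through leucine zippers to form AP-1, and Egr1 and Nr4a1 bind DNA on their own. A second set of products closes the response, with Dusp1 removing phosphate from MAP kinases and Zfp36 (tristetraprolin) causing the decay of AU-rich mRNAs. In bone, mice without Fos lack osteoclasts, and several of these genes respond to mechanical load and to parathyroid hormone. Their mRNAs are short-lived.

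The cluster deleted in the mutants encodes miR-29b and miR-29c, shown here with the related miR-29a because the shared seed (bases 2 to 8, in capitals) is what would pair with an mRNA. Sequences are from RefSeq (GRCm38.p6, the assembly behind mm10).
mmu-miR-29b-3p: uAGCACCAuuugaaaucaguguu
mmu-miR-29c-3p: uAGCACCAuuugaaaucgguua
mmu-miR-29a-3p: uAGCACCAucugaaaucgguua
The complement of the seed, TGGTGCT, was found in the longest annotated 3′ UTR (GENCODE M21) of 2 of the 10 genes, Fos with 1 match and Zfp36 with 2, and in that of 15.4% of the 11663 expressed genes searched. The matches are printed with the complement of the seed in capitals.
Fos, chr12:85476836-85476858 (mm10, plus strand): aattaaccTGGTGCTggattgta
Zfp36, chr7:28377401-28377423 (mm10, minus strand): catttcccTGGTGCTgggctggg
Zfp36, chr7:28377046-28377068 (mm10, minus strand): gagaatccTGGTGCTcaaatttc
A match is a description of the sequence and not evidence of a site in use. Neither Fos nor Zfp36 was called higher in miR-29cb2 KO bone, as the values below show. A link between seed matches and change was not tested. The AU-rich heptamer TATTTAT, a core of the elements that Zfp36 protein binds, occurred in the 3′ UTR of 6 of the 10 genes, against 29.5% of expressed genes. The longer TTATTTATT occurred in 3 of them (Fos, Dusp1 and Zfp36), against 7.79%.

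Promoter windows of 300 bases (250 before and 50 after the annotated start, RefSeq) were used for 8 of the 10 genes. Ier2 had no entry among the promoters used. Egr1 was left out of the search, so its promoter motifs are not described here. The 8 windows were searched on both strands for the CRE of CREB and ATF factors (TGACGTCA), its 5-base portion TGACG, which every full CRE contains, the AP-1 site TGANTCA, the EGR site GCGNGGGCG, the TATA box TATAAA, the CArG box of SRF and the Sp1 site GGGCGG, which can overlap the EGR site. The windows of Nr4a1 and Dusp1, whose mRNA was below WT in every KO library, and those of Junb and Zfp36, whose groups overlapped, are shown with every match in capitals except those of the Sp1 site.
Nr4a1 promoter, chr15:101266596-101266895 (plus strand): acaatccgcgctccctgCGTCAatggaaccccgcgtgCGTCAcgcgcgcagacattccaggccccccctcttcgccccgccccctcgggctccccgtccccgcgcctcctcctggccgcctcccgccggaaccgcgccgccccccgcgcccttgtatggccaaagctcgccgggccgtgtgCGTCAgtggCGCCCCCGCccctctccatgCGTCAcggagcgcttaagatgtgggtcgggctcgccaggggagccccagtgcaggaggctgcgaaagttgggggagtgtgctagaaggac
Dusp1 promoter, chr17:26508423-26508722 (minus strand): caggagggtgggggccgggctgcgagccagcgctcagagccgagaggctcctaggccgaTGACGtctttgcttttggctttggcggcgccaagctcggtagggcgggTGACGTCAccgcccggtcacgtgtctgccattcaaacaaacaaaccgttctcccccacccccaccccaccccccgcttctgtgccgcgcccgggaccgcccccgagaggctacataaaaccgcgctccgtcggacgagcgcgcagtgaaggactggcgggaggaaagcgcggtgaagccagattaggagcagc
Junb promoter, chr8:84978699-84978998 (minus strand): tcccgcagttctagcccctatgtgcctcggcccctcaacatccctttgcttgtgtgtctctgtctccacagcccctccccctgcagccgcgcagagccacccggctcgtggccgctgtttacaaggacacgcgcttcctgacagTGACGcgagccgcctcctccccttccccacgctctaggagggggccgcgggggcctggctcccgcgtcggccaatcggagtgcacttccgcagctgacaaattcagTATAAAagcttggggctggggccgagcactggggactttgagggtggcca
Zfp36 promoter, chr7:28379179-28379478 (minus strand): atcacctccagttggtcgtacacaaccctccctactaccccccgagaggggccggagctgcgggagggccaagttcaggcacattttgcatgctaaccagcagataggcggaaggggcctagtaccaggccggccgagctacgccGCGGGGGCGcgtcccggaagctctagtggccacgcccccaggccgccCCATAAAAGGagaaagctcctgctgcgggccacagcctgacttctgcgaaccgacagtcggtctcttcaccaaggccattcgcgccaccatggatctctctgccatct
Nr4a1 held TGACG 4 times and 1 EGR site, and Dusp1 held the full CRE, from position -143 to -136 relative to the start, and a further TGACG. Junb held TGACG once and TATAAA at positions 1 to 6 of the annotated transcript, while Zfp36 held a CArG box from -58 to -49 and 1 EGR site. Among the windows not shown, TGACG occurred in Atf3, below WT in every KO library, and in Fos and Fosb, whose groups overlapped. Jun, also below WT in every KO library, held no TGACG and of these motifs only the Sp1 site. A link between motifs and change was not tested. Over the 8 windows, the Sp1 site occurred in 7, TGACG in 6, the EGR site in 3, the TATA box in 2, the full CRE and the CArG box in 1 each and the AP-1 site in 0. Over all 32851 promoter windows the shares were 35.7% for the Sp1 site, 20.8% for TGACG, 5.55% for the EGR site, 13.6% for TATAAA, 1.79% for the full CRE, 1.63% for the CArG box and 7.81% for the AP-1 site.

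The libraries held 16727111 to 20118034 reads that could be recovered from the deposited FPKM values, a level per kilobase of exon scaled to library size. KO replicate 1 and WT replicate 2 stood apart from the other 4: in them short genes read high. Across 13613 genes, which are not independent replicates, the rank correlation of exon length with the deviation from the group mean was -0.45 in KO replicate 1 and -0.42 in WT replicate 2, and 0.18 to 0.41 in the rest. Mir29b-2 and Mir29c were listed at 0 in every library, so they give no check of the deletion. The host transcript A330023F24Rik stood at 2.51, 3.25 and 4.08 FPKM in KO and 0.197, 0.153 and 0.136 FPKM in WT libraries. In limma over 13619 genes with a mean of at least 1 FPKM, 3.82% were called lower in KO (520 genes) and 1.34% higher (183 genes) at a Benjamini-Hochberg adjusted p under 0.05.

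Of the 10 genes, 9 passed the filter on low values, and 1 of them, Egr1, was called lower in KO. No member was called higher. Nr4a1, Jun, Atf3 and Dusp1 were also below WT in every KO library without passing the adjusted threshold, and Fos, Fosb, Junb, Ier2 and Zfp36 overlapped between the groups. Thus KO lay entirely below WT in 5 of the 9 tested, against 13.7% of all genes tested, and entirely above WT in 0 of the 9, against 14.7%. At an unadjusted limma p under 0.05, 5 members were lower, against 11.7% of genes tested, and 0 were higher, against 8.91%. The median log2 change of the 9 tested members was -0.47, beside 0.06 for all genes tested. With KO replicate 1, 2 or 3 or WT replicate 1 or 2 left out 0 members were called lower, and without WT replicate 3 there were 3 (Egr1, Jun and Fos). Without WT replicate 3, 348 of all 13619 genes tested were called lower. Markers of cartilage, fat and connective tissue were also lower in KO libraries, and markers of neutrophil precursors higher, with values given at the end. In bulk bone, fewer cells of a type and less RNA per cell cannot be told apart.

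**Figure D1:**
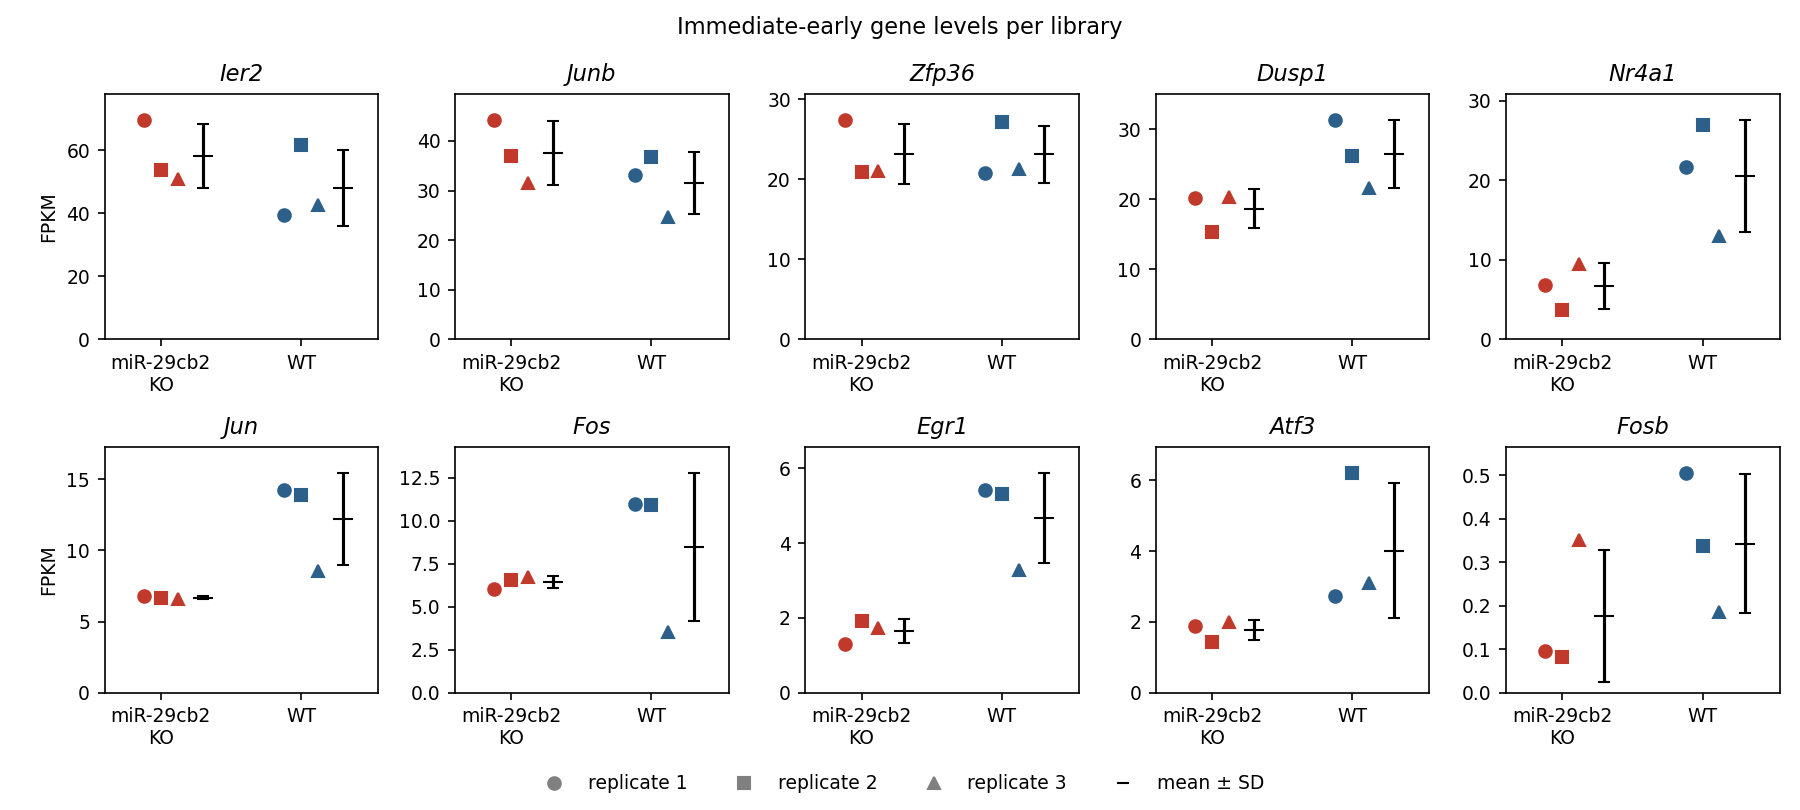
FPKM of each of the 10 genes in the 3 miR-29cb2 KO libraries (red) and the 3 WT libraries (blue), 1 panel per gene in order of mean level; marker shapes give the replicate number, and the black bar beside each group is its mean ± SD (n = 3). KO points lie below all WT points for Dusp1, Nr4a1, Jun, Egr1 and Atf3, while Zfp36 has the same mean of 23.1 FPKM in both groups.

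Among the transcription factors that act outside AP-1, Egr1 and Nr4a1 were the lowest in KO relative to WT. Egr1 (ENSMUSG00000038418; chromosome 18, 34859823 to 34864984, plus strand, mm10) encodes a zinc-finger activator induced through SRF. It stood at 1.30, 1.92 and 1.74 FPKM in KO replicates 1 to 3, from 97, 150 and 135 reads, and at 5.41, 5.31 and 3.27 FPKM in WT replicates 1 to 3, from 500, 465 and 265 reads. The highest KO library was below the lowest WT library, WT replicate 3. The ratio of means, KO over WT, was 0.355, and the change on the log2(FPKM + 1) scale was -1.08 (95% interval -1.53 to -0.62; limma adjusted p = 0.0316). This scale understates the change of genes near 1 FPKM: limma's voom on the recovered reads gave -1.48 (adjusted p = 0.0221). The adjusted p was 0.0883 without KO replicate 1, 0.0954 without KO replicate 2, 0.0703 without KO replicate 3, 0.110 without WT replicate 1 and 0.0725 without WT replicate 2. Without both libraries that stood apart the change was -0.89 (adjusted p = 0.103).

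Nr4a1 (ENSMUSG00000023034; chromosome 15, 101254269 to 101274795, plus strand) encodes the orphan nuclear receptor Nur77. Its levels were 6.89, 3.70 and 9.53 FPKM in KO replicates 1 to 3 and 21.7, 27.0 and 13.0 FPKM in WT replicates 1 to 3. KO replicate 2 was the lowest of all 6 libraries, and both groups were spread widely, with a coefficient of variation of 43.6% in KO and 34.4% in WT. The ratio of means was 0.326, the smallest of the 10 genes, and the log2 change was -1.50 (95% interval -2.34 to -0.67). With a limma adjusted p of 0.0604 it did not pass. It passed with array weights (log2 change -1.52, adjusted p = 0.0139), with the length trend of each library removed (-1.53, adjusted p = 0.0425) and by voom on recovered reads (-1.66, adjusted p = 0.0421). It did not pass in the other 15 of 18 alternative settings, where the adjusted p reached 0.169 (without WT replicate 1). Among these, it was 0.162 without both libraries that stood apart and 0.167 with the replicate block.

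Among the AP-1 genes, Jun was lower in every KO library, and Junb, Fos and Fosb overlapped between the groups. Jun (ENSMUSG00000052684; chromosome 4, 95049034 to 95052222, minus strand) encodes a strongly activating partner in AP-1. It stood at 6.81, 6.66 and 6.58 FPKM in KO and 14.3, 13.9 and 8.51 FPKM in WT libraries. The 3 KO libraries were nearly alike and all lay below WT replicate 3, the lowest WT library. The log2 change was -0.75 (95% interval -1.20 to -0.30; limma adjusted p = 0.0739), a ratio of means of 0.547, and without WT replicate 3 it was -0.97 with an adjusted p of 0.0277. That was the only 1 of 18 alternative settings in which Jun passed. With any other library left out the adjusted p was 0.148 to 0.211, and it was 0.146 with the replicate block and 0.184 without both libraries that stood apart. The antisense gene Junos overlaps the 5′ end of Jun and had 1.36 ± 0.235 FPKM in KO and 1.02 ± 0.0833 FPKM in WT libraries (SD, n = 3).

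Junb (ENSMUSG00000052837; chromosome 8, 84974484 to 84978718, minus strand), a weaker activator that can oppose Jun, had 44.3, 36.9 and 31.4 FPKM in KO and 33.1, 36.9 and 24.7 FPKM in WT libraries. The groups overlapped, and the log2 change of 0.25 had a 95% interval of -0.21 to 0.70 (limma adjusted p = 0.536). Its 3′ end overlaps the peroxiredoxin gene Prdx2 on the opposite strand, which was far more abundant at 313 ± 90.2 FPKM in KO and 369 ± 94.6 FPKM in WT libraries (SD, n = 3). The use of strand in counting is not given in the sources used here, so reads from that overlap cannot be assigned.

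Since FPKM values are per length, levels may be set against each other within a library, with the limit that the libraries differed in their length trend. Exon length was 3189 bases for Jun and 2301 bases for Junb, and reads in the Prdx2 overlap of Junb cannot be assigned. How far this shifts the values below was not tested. The ratio of Junb to Jun was 6.50, 5.54 and 4.78 in KO libraries and 2.32, 2.65 and 2.90 in WT libraries, which do not overlap. Of the summed FPKM of Jun, Junb and Jund, Jun made up 8.97 ± 1.71% in KO and 14.0 ± 3.90% in WT, Junb 49.3 ± 2.05% in KO and 36.2 ± 6.16% in WT, and Jund 41.7 ± 3.73% in KO and 49.8 ± 9.99% in WT (SD, n = 3). The Junb share was at least 47.0% in every KO library and at most 43.1% in any WT library. These ratios were chosen with the values known and carry no test.

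Fos (ENSMUSG00000021250; chromosome 12, 85473890 to 85477273, plus strand) encodes the classic inducible partner of Jun. It had 6.03, 6.54 and 6.71 FPKM in KO libraries and 11.0, 10.9 and 3.53 FPKM in WT libraries. The KO libraries lay between WT replicate 3 and the other 2 WT libraries, with a coefficient of variation of 5.53% in KO and 50.6% in WT. The log2 change was -0.22 (95% interval -1.08 to 0.64; limma adjusted p = 0.793), and WT replicate 3 decided it: without that library the change was -0.69 (adjusted p = 0.0492), and without WT replicate 1 or 2 it was 0.01 in both cases.

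Fosb (ENSMUSG00000003545; chromosome 7, 19302696 to 19310051, minus strand), whose splice product ΔFosB raises bone mass when overexpressed in mice, was the 1 member below the filter. It had 0.0966, 0.0828 and 0.352 FPKM in KO libraries, from 10, 9 and 38 reads, and 0.506, 0.337 and 0.186 FPKM in WT libraries, from 65, 41 and 21 reads. The groups overlapped (two-sided exact permutation p = 0.3, n = 3; the smallest p that 3 against 3 allows is 0.1). Within the Fos family Fosl2 (Fra-2) was the most abundant on average, with 53.5 ± 2.47% of summed FPKM in KO and 51.7 ± 8.27% in WT, while Fos made up 40.4 ± 2.41% in KO and 40.5 ± 11.3% in WT (SD, n = 3).

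**Figure D2:**
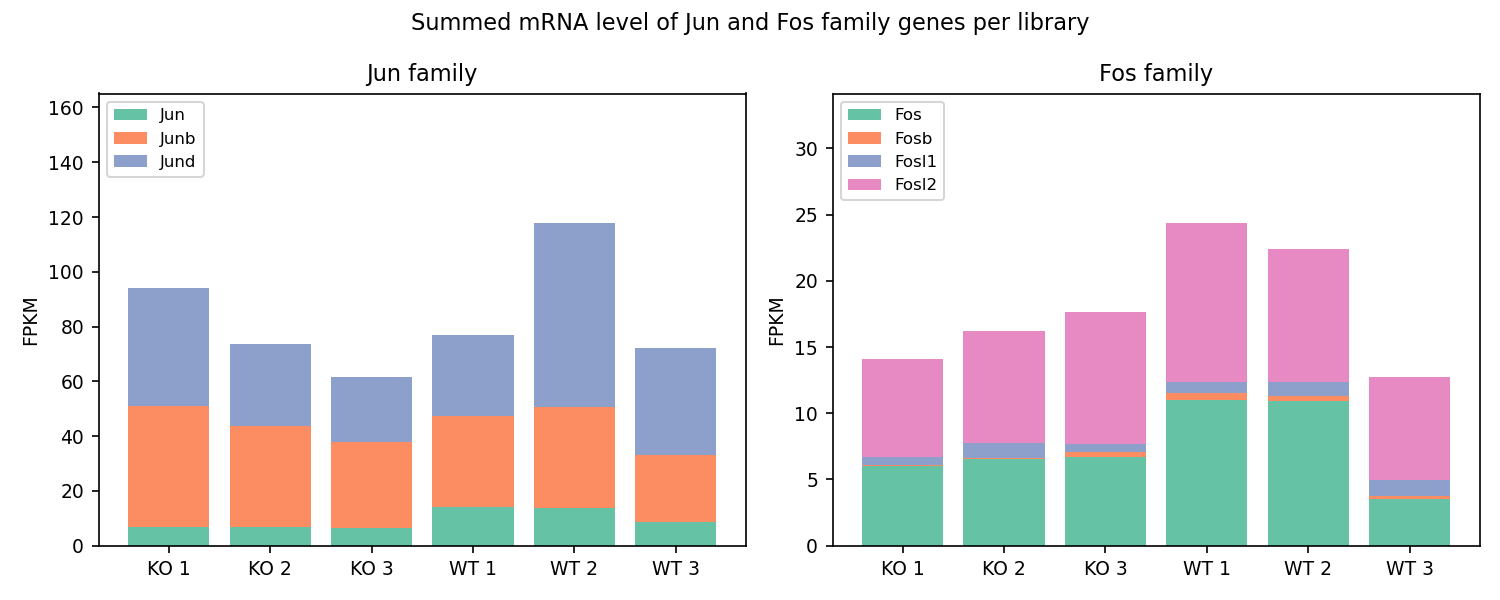
Stacked bars of FPKM for Jun, Junb and Jund (left) and Fos, Fosb, Fosl1 and Fosl2 (right) in each miR-29cb2 KO and WT library. Jun is the smallest part of its family in every library; Junb makes up 47.0% or more of the Jun family in each KO library and 43.1% or less in each WT library.

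Atf3 (ENSMUSG00000026628; chromosome 1, 191170296 to 191218039, minus strand), a stress-induced factor of the CREB and ATF family that can also pair with Jun, had 1.88, 1.44 and 1.99 FPKM in KO and 2.73, 6.21 and 3.11 FPKM in WT libraries. All KO libraries were below all WT libraries, and WT replicate 2 stood highest. The log2 change was -0.80 (95% interval -1.40 to -0.20; limma adjusted p = 0.129), and without WT replicate 2 it was -0.51 (adjusted p = 0.131).

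Ier2 (ENSMUSG00000053560; chromosome 8, 84661331 to 84662852, minus strand), a single-exon gene for a small nuclear protein, had 69.6, 53.8 and 50.9 FPKM in KO and 39.4, 61.6 and 42.6 FPKM in WT libraries. Each group had its highest value in the library that stood apart, KO replicate 1 and WT replicate 2, and at 1522 bases Ier2 has the shortest exon length of the 10. The log2 change was 0.29 (95% interval -0.21 to 0.78; limma adjusted p = 0.509), and without both libraries that stood apart it was 0.34 (adjusted p = 0.146).

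Of the genes that close the response, Dusp1 was below WT in each KO library and Zfp36 overlapped between the groups. Dusp1 (ENSMUSG00000024190; chromosome 17, 26505590 to 26562128, minus strand), a phosphatase of p38 and JNK kinases, had 20.3, 15.4 and 20.4 FPKM in KO and 31.4, 26.3 and 21.7 FPKM in WT libraries. The gap between the groups, from KO replicate 3 to WT replicate 3, was small. The log2 change was -0.47 (95% interval -0.89 to -0.06; limma adjusted p = 0.185). The far 5′ end of its annotated span overlaps Ergic1 on the opposite strand. Zfp36 (ENSMUSG00000044786; chromosome 7, 28376784 to 28380253, minus strand) had 27.4, 21.0 and 21.0 FPKM in KO and 20.8, 27.2 and 21.3 FPKM in WT libraries. Its highest values came from KO replicate 1 and WT replicate 2, the means were 23.1 ± 3.73 FPKM in KO and 23.1 ± 3.54 FPKM in WT (SD, n = 3), and the 95% interval of the log2 change was -0.38 to 0.38 (limma adjusted p = 0.998). The antisense gene Gm44710, with 1.27 ± 0.728 FPKM in KO and 1.29 ± 0.408 FPKM in WT libraries (SD, n = 3), overlaps part of Zfp36. In the 3′ UTR of Zfp36 lie 2 of the 3 printed matches to the miR-29 seed.

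**Figure D3:**
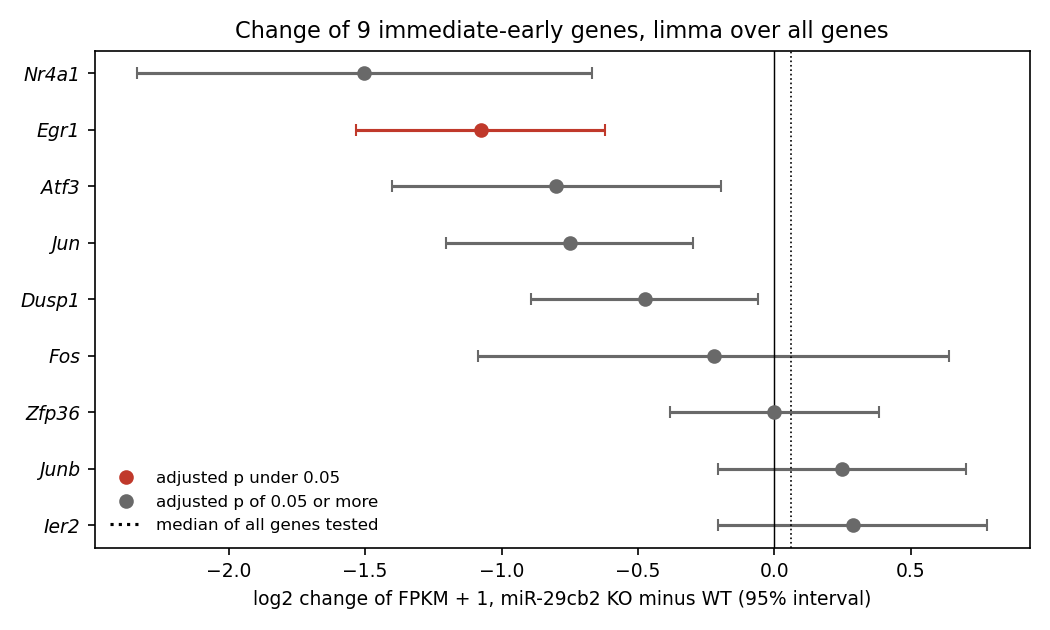
Log2 change of FPKM + 1, miR-29cb2 KO minus WT, with its 95% interval from limma, for the 9 genes above the filter; red marks an adjusted p under 0.05 and the dotted line the median of all genes tested (0.06). The intervals of Nr4a1, Egr1, Atf3, Jun and Dusp1 lie below 0, and those of Fos, Zfp36, Junb and Ier2 span it.

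In order of mean level over all 6 libraries, Ier2 (53.0 FPKM) was followed by Junb (34.6), Zfp36 (23.1), Dusp1 (22.6), Nr4a1 (13.6), Jun (9.45), Fos (7.46), Egr1 (3.16), Atf3 (2.89) and Fosb (0.260). The ranges of neighbours in that order overlapped for all pairs but Atf3 and Fosb. Ier2 exceeded Junb, Junb exceeded Zfp36 and Fos exceeded Egr1 within each of the 6 libraries, whereas Zfp36 exceeded Dusp1 in 4 and Egr1 exceeded Atf3 in 3. The order of those last 2 pairs differed between the groups. Zfp36 averaged 23.1 FPKM and Dusp1 18.7 FPKM in KO, with Zfp36 higher in 3 of 3 libraries, whereas in WT Zfp36 averaged 23.1 FPKM and Dusp1 26.4 FPKM, with Zfp36 higher in 1 of 3. Egr1 averaged 1.66 FPKM and Atf3 1.77 FPKM in KO, with Egr1 higher in 1 of 3 libraries, whereas in WT Egr1 averaged 4.67 FPKM and Atf3 4.02 FPKM, with Egr1 higher in 2 of 3. These differences in order were not tested.

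Libraries of 1 group differed in these genes together. WT replicate 3 was below its group mean for 10 of 10 genes and the lowest WT library for 7, with a median deviation of -0.29 on the log2(FPKM + 1) scale, while the median over all genes tested was 0.01 in that library. WT replicate 2 was at or above its group mean for all 10 genes (median 0.24, against 0.01 over all genes) and WT replicate 1 was below it for 3 (median 0.15). In KO, replicate 2 was below its group mean for 8 genes (median -0.10), and the KO medians of replicates 1 and 3 were 0.09 and 0.05. The coefficient of variation was smaller in KO than in WT for 7 of 10 genes. The share of all genes with this order was not computed. How animals and tissue were handled before freezing is not given in the sources used here.

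**Figure D4:**
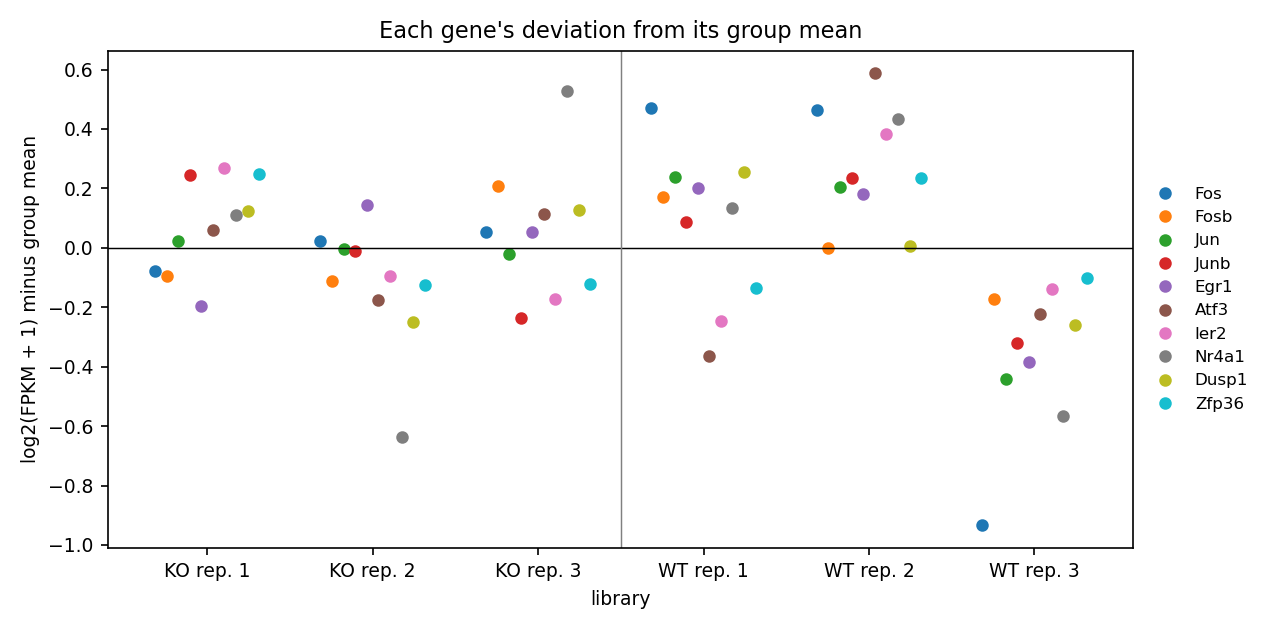
Deviation of each of the 10 genes (colours) from the mean of its own group, as log2(FPKM + 1), in the 3 miR-29cb2 KO libraries (left) and the 3 WT libraries (right). All 10 points of WT replicate 3 lie below 0, with Fos lowest at -0.93.

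Profiles over the 6 libraries were compared as log2(FPKM + 1) after removal of each gene's mean. The 5 genes closest to Fos were Khdrbs3 (root mean square difference 0.19), Gdf15 (0.22), Myl2 (0.27), Fndc10 (0.28) and Errfi1 (0.28), where Fos itself varied by 0.48. Closest to Egr1, which varied by 0.58, were Nkain1 (0.07), Pls3 (0.08), Bcl6b (0.09), Sspn (0.10) and Slc37a2 (0.10). The search covered 11447 protein-coding genes, and 6 libraries are few for such a ranking.

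The rest of the pathway was read from 7 lists. Of 37 other immediate-early genes, 32 were tested, and 1 was called lower and 1 higher, against 3.82% and 1.34% of all genes tested (median log2 change -0.11). At an unadjusted limma p under 0.05, 5 were lower and 3 higher, against 11.7% and 8.91%. The kinase gene Plk2 fell to 1.06 ± 0.188 FPKM in KO, against 2.64 ± 0.383 FPKM in WT (SD, n = 3; log2 change -0.82, limma adjusted p = 0.0306). Cebpb, a transcription factor of myeloid cells and fat cells, rose to 46.8 ± 9.75 FPKM in KO, against 18.5 ± 8.11 FPKM in WT (log2 change 1.35, limma adjusted p = 0.0495), and that call was lost in 13 of 18 alternative settings. With 1 library left out, Cebpb passed without WT replicate 2 (adjusted p = 0.0252) and not in the other 5 cases (0.0853 to 0.162). Plk2 passed without WT replicate 3 (adjusted p = 0.0484) and not in the other 5 cases (0.0663 to 0.113). Dusp5, a phosphatase of ERK kinases, had 2.88 ± 0.282 FPKM in KO and 4.19 ± 0.374 FPKM in WT, with a limma adjusted p of 0.0958 that missed the threshold. Of the 32 tested, KO lay entirely below WT in 9, against 13.7% of all genes tested, among them the Nr4a1 relative Nr4a2 and the Egr1 relative Egr3. KO lay entirely above WT in 4 of the 32, against 14.7%. The Nr4a1 relative Nr4a3, below the filter, had 0.191, 0.192 and 0.396 FPKM in KO and 0.779, 1.75 and 0.953 FPKM in WT libraries. The Egr1 relative Egr2, also below it, overlapped, at 0.231, 0.186 and 0.561 FPKM in KO and 0.857, 1.01 and 0.375 FPKM in WT libraries. Of the others below the filter, Arc and Ptgs2 were below WT in every KO library and Npas4 was above WT in every KO library.

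Of the 10 AP-1 partners, 9 were tested and 0 were called in limma (0 lower and 1 higher at an unadjusted p under 0.05, against 11.7% and 8.91% of all genes tested; median log2 change -0.11). The 3 smallest p-values belonged to Batf (log2 change 0.63, limma adjusted p = 0.193), Batf3 (-0.50, 0.249) and Maff (-0.35, 0.395). Of 20 upstream kinases and activators, all 20 were tested and 0 were called in limma, with 1 lower and 3 higher at an unadjusted p under 0.05, against 11.7% lower and 8.91% higher of all genes tested, and a median of 0.04. Srf, the factor that switches on many of these genes, had 30.2, 27.9 and 28.9 FPKM in KO and 21.1, 22.4 and 21.4 FPKM in WT libraries, so that KO was above WT in every library (log2 change 0.41, limma adjusted p = 0.0738). Its ETS partner Elk3 had a log2 change of -0.36 (limma adjusted p = 0.121), and the ribosomal S6 kinase gene Rps6ka1 one of 0.37 (0.133).

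Of 13 feedback inhibitors, 12 were tested and 0 were called in limma, while 5 were lower and 0 higher at an unadjusted p under 0.05, against 11.7% lower and 8.91% higher of all genes tested (median log2 change -0.35). The ERK phosphatase gene Dusp4 had 0.767 ± 0.180 FPKM in KO and 2.15 ± 0.591 FPKM in WT (SD, n = 3; log2 change -0.82, limma adjusted p = 0.0537), and the Sprouty genes Spry4 (-0.59, 0.0866) and Spry1 (-0.58, 0.130) followed. In the Zfp36-bound list, 3 of 9 genes were tested: the cytokine gene Il1b fell to 6.40 ± 2.96 FPKM in KO, against 17.6 ± 2.18 FPKM in WT (SD, n = 3; log2 change -1.39, limma adjusted p = 0.0343). The adjusted p of Il1b was 0.0087 without KO replicate 3 and 0.0742 to 0.126 with any other library left out. Tnf had a log2 change of 0.90 (limma adjusted p = 0.0561) and Ccl3 one of -0.24 (0.545). Of 9 AP-1 target genes, 8 were tested, and 2 were called lower and 0 higher, against 3.82% and 1.34% of all genes tested (median -0.77). At an unadjusted limma p under 0.05, 5 were lower and 1 higher, against 11.7% and 8.91%. The cyclin gene Ccnd1, called lower, had 2.47 ± 0.179 FPKM in KO and 5.34 ± 0.732 FPKM in WT (limma adjusted p = 0.0198). The protease inhibitor gene Timp1, also called lower, had 4.15 ± 1.42 FPKM in KO and 19.7 ± 11.0 FPKM in WT (limma adjusted p = 0.0383). The call of Ccnd1 was lost without KO replicate 1 or 2 or WT replicate 1 or 3 (adjusted p from 0.0524 to 0.0881), and that of Timp1 without KO replicate 1, 2 or 3 or WT replicate 1 or 2 (0.0522 to 0.136). Spp1, osteopontin, had a log2 change of -1.69 (limma adjusted p = 0.0711). Of 5 heat shock genes that respond to tissue handling, 4 were tested and 0 were called in limma. Of these, 0 were lower and 1 higher at an unadjusted limma p under 0.05, against 11.7% and 8.91% of all genes tested. The smallest p-values belonged to Hsph1 (log2 change 0.45, limma adjusted p = 0.158), Hspa8 (0.37, 0.414) and Hspa1b (-0.08, 0.869).

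**Figure D5:**
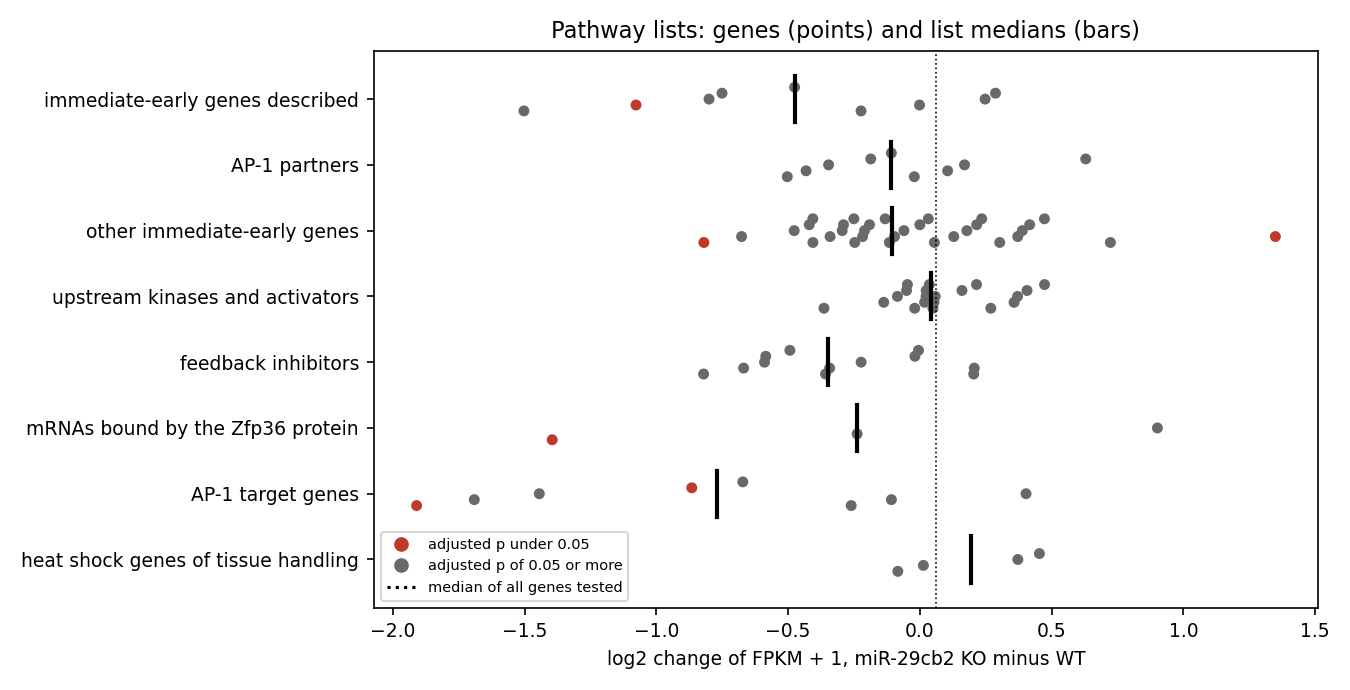
Log2 change of FPKM + 1, miR-29cb2 KO minus WT, for each tested gene (points; red where the adjusted p is under 0.05) of the immediate-early genes described and of 7 pathway lists, with the list median as a black bar and the median of all genes tested (0.06) as a dotted line. The medians run from -0.77 in the AP-1 target genes to 0.19 in the heat shock genes.

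The libraries also differed in markers of the cells they held, given here as summed FPKM over each whole list. Over all genes tested, 3.82% were called lower and 1.34% higher. Chondrocyte markers (7 of 7 tested called lower) summed to 7.34 to 32.0 in KO and 219 to 325 in WT, fat cell markers (5 of 5 lower) to 62.8 to 138 in KO and 487 to 753 in WT, and tendon and fibroblast markers (5 of 5 lower) to 6.45 to 11.7 in KO and 53.7 to 67.1 in WT. Skeletal muscle (3 of 7 lower) summed to 1739 to 2598 in KO and 3430 to 6155 in WT, osteoblast and osteocyte (3 of 8 lower) to 501 to 987 in KO and 1139 to 1976 in WT, osteoclast (1 of 5 lower) to 167 to 380 in KO and 624 to 1273 in WT, and endothelial markers (2 of 5 lower) to 35.7 to 43.8 in KO and 49.5 to 54.5 in WT. KO lay entirely below WT in 5 of 7 tested muscle, 7 of 8 osteoblast and osteocyte, 5 of 5 osteoclast and 4 of 5 endothelial markers. It lay entirely above WT in 0 of each of these lists. Over all genes tested the shares were 13.7% below and 14.7% above. Neutrophil precursor markers (3 of 4 called higher) summed to 2382 to 3528 in KO and 939 to 1316 in WT. Mature neutrophil and erythroid markers (0 of 5 called in each), T cell (0 of 4) and B cell markers (1 of 5 lower, Vpreb1) had summed ranges that overlapped. These were 29973 to 39513 in KO and 16096 to 31196 in WT for mature neutrophils, and 25358 to 45106 in KO and 26050 to 54847 in WT for erythroid cells. They were 13.4 to 16.9 in KO and 16.4 to 20.4 in WT for T cells, and 178 to 336 in KO and 249 to 305 in WT for B cells. KO lay entirely above WT in 3 of 5 mature neutrophil markers (list median log2 change 0.52). Their highest WT sum was that of WT replicate 2, where short genes read high. Monocyte and macrophage sums (1 of 5 lower, Csf1r) did not overlap, at 121 to 136 in KO and 145 to 158 in WT. That list was mixed, with KO entirely below WT in 2 of 5 and entirely above in 1 (median -0.13). Above WT was Ccr2, at 31.4, 42.0 and 30.9 FPKM in KO and 20.6, 19.6 and 24.1 FPKM in WT libraries. No marker was at 0 in all libraries. The part of these marker differences in the levels of the immediate-early genes was not tested.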

How the data were processed

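RNA was measured in bone from 3 miR-29cb2 KO and 3 WT libraries; per the labels' protocols it was extracted with Trizol and libraries were made with an Illumina TruSeq kit. The authors deposited FPKM values for 54532 genes. The submitters' processing notes name Bowtie 0.12.2 and the mm10 build. How fragments were counted, with which annotation and with what use of strand, is not given in the sources used here. GENCODE M21 held 54495 of the identifiers. FPKM times exon length gave whole reads (tolerance 0.01) for 96.9% of genes with a value above 0; Dusp1 was not among them. The test was limma 3.58.1 (R 4.3.3; variance trend, no covariate) on log2(FPKM + 1), after a filter at a mean of 1 FPKM, with Benjamini-Hochberg adjustment over 13619 genes and a threshold of 0.05. Python 3.11.15 and matplotlib 3.10.9 were used for the rest.

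The genes and lists were chosen with earlier results of these data known. Genes named are all 10, the 3 smallest p-values of each pathway list, those called where a pathway list had 5 or fewer calls, and 5 like profiles each for Fos and Egr1. The rule does not cover the cell marker lists. Nr4a2, Nr4a3, Egr2, Egr3, Arc, Npas4, Ptgs2, Jund, Fosl1, Fosl2, A330023F24Rik, Vpreb1, Csf1r, Ccr2 and overlapping genes were named outside it, with their values known. The limma step was tested on data simulated in 5 runs of 13470 to 13492 genes, where 18.7% of 1.5-fold, 85.9% of 2-fold and 98.7% of 4-fold changes were recovered, and 62 of 711 calls were false. Every simulated gene had the same negative binomial dispersion of 0.0192, and the libraries had no length trend. These shares therefore do not carry over to genes that varied more, such as Fos and Nr4a1. Alternatives were other pseudocounts, filters, scalings and limma options, voom on recovered reads (12950 genes, without Dusp1), a replicate block, and libraries left out 1 at a time or both that stood apart.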

Additional observations from a re-analysis of the deposited data

How the results depend on the processing

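Of the 10 genes, Egr1, Jun, Atf3, Nr4a1, Dusp1, Junb, Ier2 and Fosb kept their direction in each setting run, and Fos and Zfp36 did not. Fos had a log2 change of 0.43 with array weights and 0.048 without both libraries that stood apart, and -0.69 to 0.01 with 1 library left out; Zfp36 had -0.12 to 0.12 with 1 library left out. The number of members called lower was 1 and became 0 without a filter (Egr1 adjusted p = 0.0852), with a mean of at least 5 FPKM (Egr1 is then not tested), with the replicate block and without both libraries that stood apart (Egr1 adjusted p = 0.103), 2 with the length trend removed or by voom (Egr1 and Nr4a1), 4 with array weights (Egr1, Nr4a1, Atf3 and Dusp1) and 0 to 3 with 1 library left out. Members called higher went to 1 (Junb) with array weights. Egr1's adjusted p ranged from 0.0124 to 0.110 over its alternatives. The array weights were uneven, from 0.247 (WT replicate 2) to 5.33 (KO replicate 2).

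Over all genes, 520 were called lower and 183 higher. The counts were 100 and 43 without a filter, 1803 and 1551 with array weights, 108 and 19 with the replicate block, 153 and 86 without both libraries that stood apart and 837 and 379 with the length trend removed; 232 were lower with a mean of at least 5 FPKM. With 1 library left out, 48 to 348 were lower and 14 to 79 higher. The deviations of same-numbered libraries from their group means had Pearson's r of -0.49, -0.27 and 0.16 for replicates 1, 2 and 3 across 13619 genes. The length trend enters these values, with a rank correlation of -0.45 in KO replicate 1 and 0.41 in WT replicate 1. Whether same-numbered libraries were paired in collection or preparation therefore cannot be told from them. The cause of the shifts in calls between settings was not tested. The recovered reads per gene limit Fosb most, at 9 to 65 reads per library.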
